A study of Mus musculus with 24 samples.

Results

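Messenger RNA of 10 genes of the integrated stress response was followed in mouse embryonic stem cells, wild-type or titled Atf3 KO, as they differentiated. The genes are the kinase gene Eif2ak3, the transcription factor genes Atf4, Atf5, Ddit3 and Cebpb, the target genes Asns, Chac1, Sesn2 and Trib3, and the phosphatase subunit gene Ppp1r15a. They were chosen by name, and all 10 were found among the 53465 genes of the deposited table. The 24 libraries fall into 8 groups of 3: wild-type (WT) cells and cells titled Atf3 KO (a knockout of Atf3), each taken on day 0 and after 3, 6 and 9 days of differentiation. Before differentiation the cells were kept as undifferentiated stem cells in serum with leukemia inhibitory factor and with CHIR99021 and PD0325901, which inhibit the kinases GSK3 and MEK. The sources used here do not give the number of knockout clones, the edited part of Atf3 or the differentiation medium. Nothing says that libraries of 1 group are from separate cultures, so p-values measure only how far these libraries scatter, and that scatter may be technical. The batch named in the labels repeats genotype and day, so batch and group cannot be told apart.

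In the integrated stress response, kinases that sense stress in the endoplasmic reticulum, lack of amino acids, lack of haem or viral RNA phosphorylate the translation factor eIF2alpha. Most protein synthesis then slows, while the messenger RNAs of Atf4, Atf5 and Ddit3 are translated better because of upstream open reading frames. Atf4 protein, often paired with a C/EBP factor such as Cebpb, binds the promoters of genes for amino acid supply and stress adaptation, and Ppp1r15a returns eIF2alpha to its unphosphorylated form. Atf3 is itself a target of Atf4. Because the control of Atf4 is largely translational, levels of its messenger RNA do not measure the activity of its protein.

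The sequences at which Atf4 and related factors are known to bind were looked for in the RefSeq promoters of the 10 genes, on the mouse build GRCm38.p6, from 250 bases before to 50 bases after the start site. Promoters were found for 10 of 10 members, with 2 for Atf5, so that 11 promoters were read. The C/EBP-ATF response element, TGATGNAA on either strand, occurred in promoters of 3 members, Asns, Chac1 and Trib3, and in 3.97% of all 32851 promoters in the table. The palindromic cAMP response element, TGACGTCA, occurred in 1 member, Ppp1r15a, and in 1.79% of all promoters. The endoplasmic reticulum stress element, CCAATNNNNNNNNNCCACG on either strand, occurred in no member and in 0.119% of all promoters. The stretches below are shown because they carry these elements in an amino acid supply gene, a glutathione-degrading gene, Atf3 itself and the phosphatase gene. The element is in capitals, and each stretch is read 5′ to 3′ on the gene's own strand.
Chac1, chr2:119351024-119351081, plus strand: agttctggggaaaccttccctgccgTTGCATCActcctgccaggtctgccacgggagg
Atf3, chr1:191183411-191183468, minus strand: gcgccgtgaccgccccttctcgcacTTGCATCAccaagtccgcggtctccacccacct
Asns, chr6:7693214-7693243, minus strand: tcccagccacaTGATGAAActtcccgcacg
Ppp1r15a, chr7:45526269-45526305, minus strand: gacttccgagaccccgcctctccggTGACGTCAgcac
Counted from the start site, with 0 as the first transcribed base, the first base of the element lay at position -193 in Chac1, at -110 in Atf3, at -23 in Asns and at -12 in Ppp1r15a. Chac1 and Atf3 hold the same 8 bases, TTGCATCA, which is TGATGCAA read on the other strand. The Asns element lies inside an exon of a longer annotated transcript. The element of Trib3 lies after the start site, at position 14. A match to a motif describes the letters and is not a measured binding site.

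Sequencing depth, recovered from the deposited FPKM values (fragments per kilobase of transcript, scaled by library) and the gene lengths, ran from 7855614 to 25274389 reads (median of the libraries 15611770). Reads of ribosomal RNA type, on the 3 genes Gm42418, CT010467.1 and Gm23935, made up 4.42% to 45.6% of the reads of a library, although the libraries were made from poly(A)-selected RNA. That maximum belonged to WT day 6 replicate 3, which had 4272088 reads outside these genes, the fewest of any library. The summed FPKM of 6 naive stem cell markers was 1478 to 1589 over the 6 libraries of day 0 and 24.1 to 79.7 over the 6 of day 9. At day 9 the summed endothelial markers were 10.6 to 14.5 in WT and 26.9 to 30.5 in Atf3 KO. At day 0 the same sum was already 22.7 to 24.9 in WT and 24.9 to 35.6 in Atf3 KO. Heart muscle markers at day 9 were 80.1 to 130.1 in WT and 283 to 937 in Atf3 KO. Trophoblast markers of that day went the other way, at 44.0 to 87.4 in WT and 7.62 to 15.5 in Atf3 KO. In bulk RNA, fewer cells of a type and less RNA per cell cannot be told apart.

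Atf3 (ENSMUSG00000026628, mm10 chromosome 1, 191170296 to 191218039, minus strand), a stress-induced repressor and activator of the ATF family, was lower in every Atf3 KO library than in every WT library of the same day. The WT libraries had it at 1.38, 3.06 and 1.15 FPKM at day 0, at 5.03, 15.8 and 10.5 at day 3, at 12.7, 23.99 and 10.9 at day 6 and at 13.7, 15.0 and 16.2 at day 9. Atf3 KO libraries had it at 0.217, 0.134 and 0.165 FPKM at day 0, at 0.248, 0.447 and 0.611 at day 3, at 0.343, 0.578 and 4.17 at day 6 and at 0.355, 0.714 and 0.532 at day 9. The third of the day 6 knockout libraries stood above the other 11, with 181 reads on Atf3, and above the WT libraries of day 0. Values throughout are in the order of replicates 1, 2 and 3, except at day 0 of Atf3 KO. There they are replicate 1, a library known by group but left unnumbered, and replicate 2. Labels conflict at that point. The column of the unnumbered library is named as number 2, and the library titled replicate 2 has the column numbered 3. The difference between Atf3 KO and WT on the log2(FPKM + 1) scale was -1.23 on day 0, with an adjusted p of 1 (limma, Benjamini-Hochberg adjustment over 15159 genes). It was -2.88 on day 3 (adjusted p = 0.0107), -2.84 on day 6 (8.13e-04) and -3.38 on day 9 (5.86e-05). The day 3 and day 6 calls were lost as TPM, in which each library's values are scaled to the same sum (adjusted p = 0.752 and 0.175), or when only the compared groups were fitted (0.622 and 0.799). The call at day 3 was also lost with the replicate numbers as a block (0.752) and without any 1 of 5 of its 6 libraries, WT replicates 2 and 3 and Atf3 KO replicates 1, 2 and 3 (0.0593 to 0.153). In WT cells Atf3 rose by 1.94 from day 0 to day 3 (SE 0.406, adjusted p = 0.00114) and by 2.54 from day 0 to day 6 (adjusted p = 3.44e-05).

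The first question is how the 10 genes moved as WT cells differentiated, since the stress response genes are also genes of growth and amino acid supply. Ddit3 and Cebpb rose and Asns fell within the first 3 days, and each stayed on that side of day 0 to day 9. The mean of Ddit3 was highest at day 3, at 20.2 FPKM, and was 15.8 at day 6 and 11.6 at day 9. Ppp1r15a was higher and Eif2ak3 lower at day 6 than at day 0. Atf4, the central factor, passed no test between days. From day 0 to day 3 in WT, 2 members were called higher and 1 lower, while 11.4% of all 15159 genes were called higher and 14.5% lower. From day 0 to day 6, 3 members were higher and 2 lower, with 22.5% and 25.2% of all genes. From day 0 to day 9, 2 members were higher and 1 lower, with 22.2% and 23.8% of all genes. The median change of the 10 members against day 0 was 0.21, 0.10 and -0.12 on the log2 scale at days 3, 6 and 9, and the median of all genes was between -0.01 and 0 at each. Against these shares of all genes, 3 to 5 members of 10 is not a result about the members as a set.

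**Figure D1:**
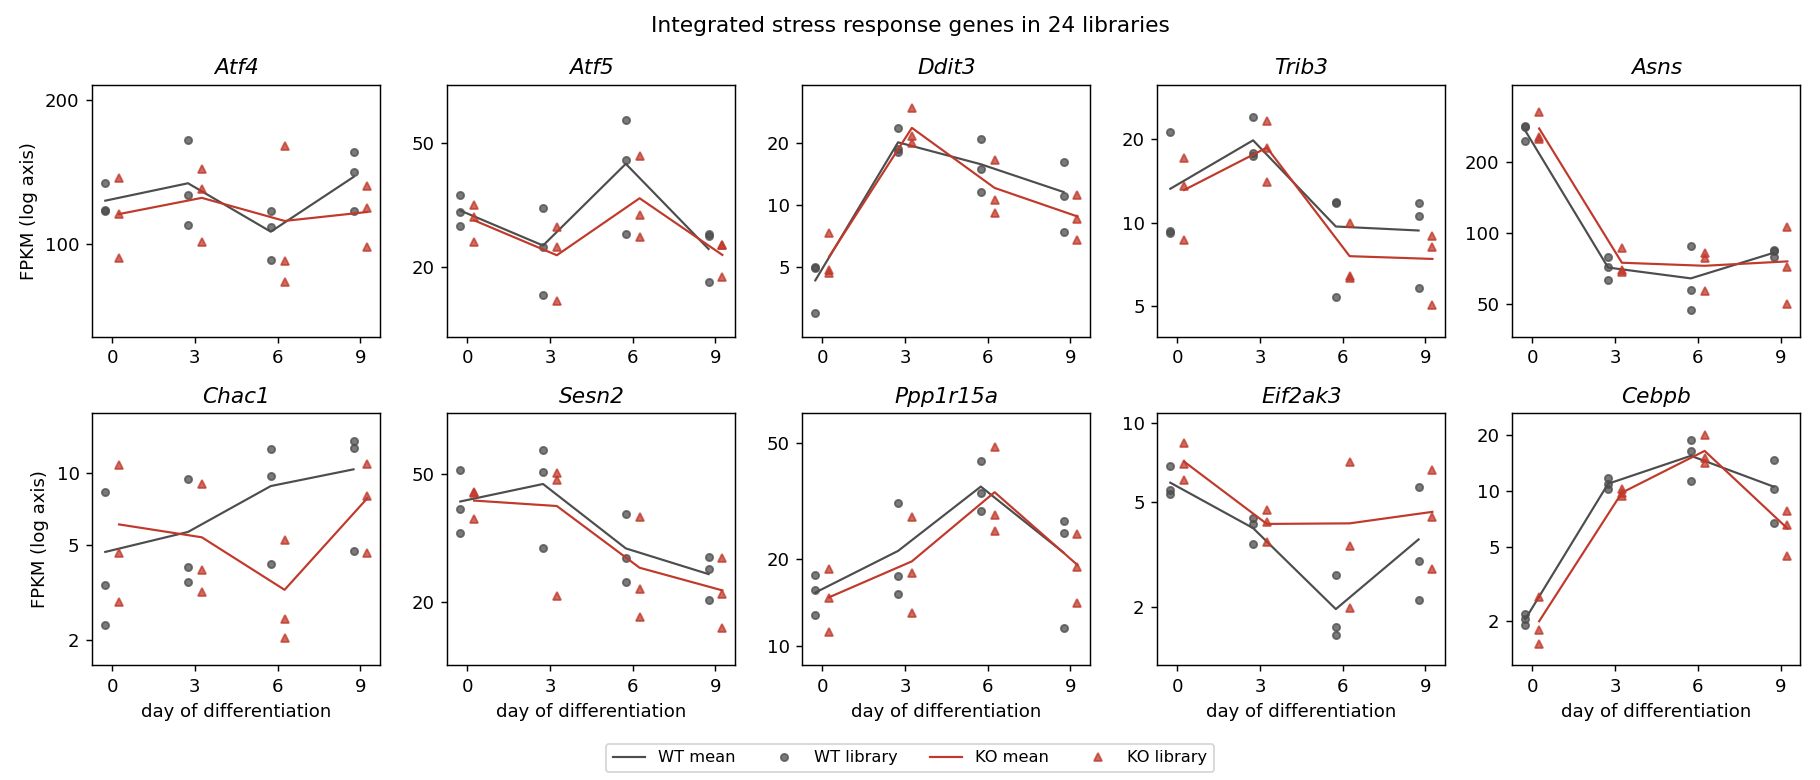
FPKM (log axis) of each of the 10 members against day of differentiation, with 1 point per library, WT as grey circles and Atf3 KO as red triangles, and lines through the group means. Ddit3 and Cebpb climb and Asns drops between days 0 and 3 in both genotypes, while the red and grey points overlap at every day in every panel.

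Eif2ak3 (ENSMUSG00000031668, mm10 chromosome 6, 70844515 to 70905245, plus strand) encodes PERK, the eIF2alpha kinase of the endoplasmic reticulum. It was a low transcript, at 1.56 to 8.39 FPKM over the 24 libraries, with 41 to 1209 reads. Its WT values were at 5.39, 6.88 and 5.57 FPKM at day 0, at 4.15, 3.48 and 4.35 at day 3, at 1.68, 2.65 and 1.56 at day 6 and at 5.74, 2.98 and 2.12 at day 9. All 3 WT libraries of day 6 were below all of days 0 and 3, and the day 9 libraries ran from 2.12, among the day 6 values, to 5.74, among those of day 0. In WT, Eif2ak3 fell by 1.24 on the log2 scale from day 0 to day 6 (SE 0.311, adjusted p = 0.00266), a call lost only as TPM (adjusted p = 0.131). Its level in Atf3 KO was at 6.98, 8.39 and 6.09 FPKM at day 0, at 4.20, 3.54 and 4.69 at day 3, at 1.98, 3.41 and 7.11 at day 6 and at 4.39, 2.80 and 6.63 at day 9. The third knockout library of day 6 lay within the day 0 values, where the other 2 lay below them. The fall from day 0 to day 6 in Atf3 KO, -0.77 with an adjusted p of 0.0496, passed in only 3 of 15 alternatives. Over the 8 groups the mean was highest in Atf3 KO at day 0 (7.15 ± 1.16 FPKM, SD, n = 3) and lowest in WT at day 6 (1.963 ± 0.600), and each group overlapped its neighbour in that order. The gene shares 485 bases with Gm43292 on the opposite strand, a transcript at a median of 1.59 FPKM. The sources used here do not say whether reads were counted by strand, which matters for every overlap on the opposite strand given here.

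Atf4 (ENSMUSG00000042406, mm10 chromosome 15, 80255184 to 80257541, plus strand) was the steadiest of the 10, at 83.5 to 165 FPKM over all 24 libraries, a 1.98-fold range. WT cells had it at 134, 118 and 118 FPKM at day 0, at 109.9, 165 and 127 at day 3, at 92.8, 117 and 109 at day 6 and at 117, 156 and 142 at day 9. Cells titled Atf3 KO had it at 116, 93.8 and 137 FPKM at day 0, at 101, 143 and 131 at day 3, at 83.5, 92.1 and 160.1 at day 6 and at 119, 132 and 98.7 at day 9. No group lay apart from its neighbour in the order of the 8 means, which ran from 138 ± 19.6 FPKM in WT at day 9 to 106 ± 12.4 in WT at day 6. Changes against day 0 lay between -0.22 and 0.16 on the log2 scale in the 2 genotypes and none passed (adjusted p 0.459 to 0.952). Scaling to TPM gave a rise in WT of 1.16 from day 0 to day 9 (adjusted p = 0.0391) and of 1.47 from day 6 to day 9 (adjusted p = 0.0244). That scaling moved the median of all genes by 0.78 and 0.81 in those comparisons, so relative to all genes the rises were smaller than the values printed. The shift as TPM was 0.72 for Atf3 KO from day 0 to day 9, 0.36 from day 0 to day 6 and 0.53 for Atf3 KO against WT at day 6, and a TPM value is to be read against it. Equal sums outside the ribosomal-type genes moved that median by -0.17 in WT and by -0.10 in Atf3 KO from day 0 to day 6.

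Atf5 (ENSMUSG00000038539, mm10 chromosome 7, 44812256 to 44816658, minus strand) encodes a factor whose translation is controlled much as that of Atf4. It was at 34.0, 27.0 and 29.96 FPKM at day 0 in WT, at 16.2, 30.9 and 23.1 at day 3, at 44.0, 25.4 and 59.4 at day 6 and at 17.9, 25.5 and 25.02 at day 9. The knockout cells had it at 28.9, 23.99 and 31.7 FPKM at day 0, at 15.4, 26.7 and 23.1 at day 3, at 45.4, 24.97 and 29.4 at day 6 and at 23.54, 23.4 and 18.5 at day 9. Its highest value, 59.4 FPKM, came from the WT day 6 library with the largest share of ribosomal-type reads, and the 3 WT libraries of day 6 overlapped those of day 3. Between these days in WT, 1 member was called higher and 1 lower, with 38.6% of all genes called in either direction. Atf5 was the one called higher, by 0.81 (SE 0.287, adjusted p = 0.0304), and it passed in 7 of 16 alternatives. Atf5 overlaps Nup62 by 82 bases on the opposite strand, and Nup62 was at a median of 66.8 FPKM.

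Ddit3 (ENSMUSG00000025408, mm10 chromosome 10, 127290774 to 127296288, plus strand) encodes CHOP, a C/EBP-related factor linked to cell death under unresolved stress. The WT levels were at 5.00, 4.94 and 2.98 FPKM at day 0, at 18.7, 18.2 and 23.8 at day 3, at 15.0, 11.6 and 20.9 at day 6 and at 7.44, 11.1 and 16.2 at day 9. All 9 WT libraries of days 3 to 9 were above all 3 of day 0. On the log2 scale the rise in WT was 2.02 by day 3 (SE 0.280, adjusted p = 1.36e-05), 1.65 by day 6 (adjusted p = 6.62e-05) and 1.21 by day 9 (adjusted p = 0.00129), and it held in every alternative. In Atf3 KO, Ddit3 was at 4.68, 7.31 and 4.86 FPKM at day 0, at 21.7, 20.1 and 29.6 at day 3, at 16.6, 10.7 and 9.15 at day 6 and at 6.74, 11.2 and 8.54 at day 9. Here the day 9 libraries overlapped those of day 0. Ddit3 rose in Atf3 KO by 1.91 by day 3 (adjusted p = 2.47e-05) and by 0.97 by day 6 (adjusted p = 0.00793), and the day 9 difference of 0.57 did not pass (adjusted p = 0.108). That day 9 difference passed as TPM (1.42, adjusted p = 7.33e-04) and with equal sums outside the ribosomal-type genes (0.69, 0.00857). The median of all genes was then 0.70 and 0.07. The day 6 call was lost without Atf3 KO day 6 replicate 1 (0.74, adjusted p = 0.0539). From day 3 to day 6 in Atf3 KO, Ddit3 fell by 0.94 (adjusted p = 0.0140, passing in 12 of 16 alternatives), where the WT difference was -0.36 (adjusted p = 0.317). With equal sums outside the ribosomal-type genes the WT difference passed (-0.73, adjusted p = 0.00807), with the median of all genes at -0.26. The course did not differ between the genotypes by its own test: the interaction was -0.68 on day 6, with an adjusted p of 0.956, and -0.64 on day 9, with an adjusted p of 1. Ddit3 overlaps Mars, a methionyl-tRNA synthetase gene, by 68 bases on the opposite strand, and Mars was at a median of 47.9 FPKM. A second annotated gene of the same name shares 105 bases with Ddit3 on the same strand, and no level was found for it.

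Cebpb (ENSMUSG00000056501, mm10 chromosome 2, 167688915 to 167690418, plus strand) encodes a partner of Atf4 at its target promoters. It had the widest range of the 10, from 1.501 to 20.2 FPKM. WT libraries were at 2.04, 2.19 and 1.91 FPKM at day 0, at 11.8, 10.9 and 10.2 at day 3, at 11.3, 16.4 and 18.8 at day 6 and at 6.78, 10.3 and 14.6 at day 9. The Atf3 KO values were at 1.501, 1.78 and 2.70 FPKM at day 0, at 9.80, 10.2 and 9.39 at day 3, at 14.1, 15.2 and 20.2 at day 6 and at 4.48, 7.86 and 6.56 at day 9. Every library of days 3 to 9 was above every library of day 0 in both genotypes. Cebpb rose in WT by 1.97 by day 3 (SE 0.233, adjusted p = 1.82e-06), by 2.41 by day 6 (adjusted p = 5.17e-08) and by 1.87 by day 9 (adjusted p = 1.38e-06). In Atf3 KO the rises were 1.87 (adjusted p = 3.41e-06), 2.55 (2.18e-08) and 1.28 (1.31e-04), and all 6 held in every alternative. From day 6 to day 9 it then fell by 1.27 in Atf3 KO (adjusted p = 0.00104), where all 3 libraries of day 9 were below all 3 of day 6. In WT the difference between those days was -0.54 (adjusted p = 0.124) and the libraries overlapped. The knockout fall was lost as TPM (adjusted p = 0.253) and with the compared groups alone (0.0824). It was the one member called among 10 in that comparison, in which 8.51% of all genes were called, and 0 by limma in WT from day 6 to day 9. There 13.3% of all genes were called, 3 members and 30.4% of all genes had an unadjusted p under 0.05, and voom on recovered reads also called 0 members. In the order of the 8 means, Atf3 KO at day 9 (6.30 ± 1.70 FPKM) stood apart from both neighbours, Atf3 KO at day 3 above it (9.81 ± 0.430) and WT at day 0 below it (2.05 ± 0.140). Cebpb overlaps Tmem189 by 312 bases on the opposite strand, and Tmem189 was at a median of 12.3 FPKM.

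**Figure D2:**
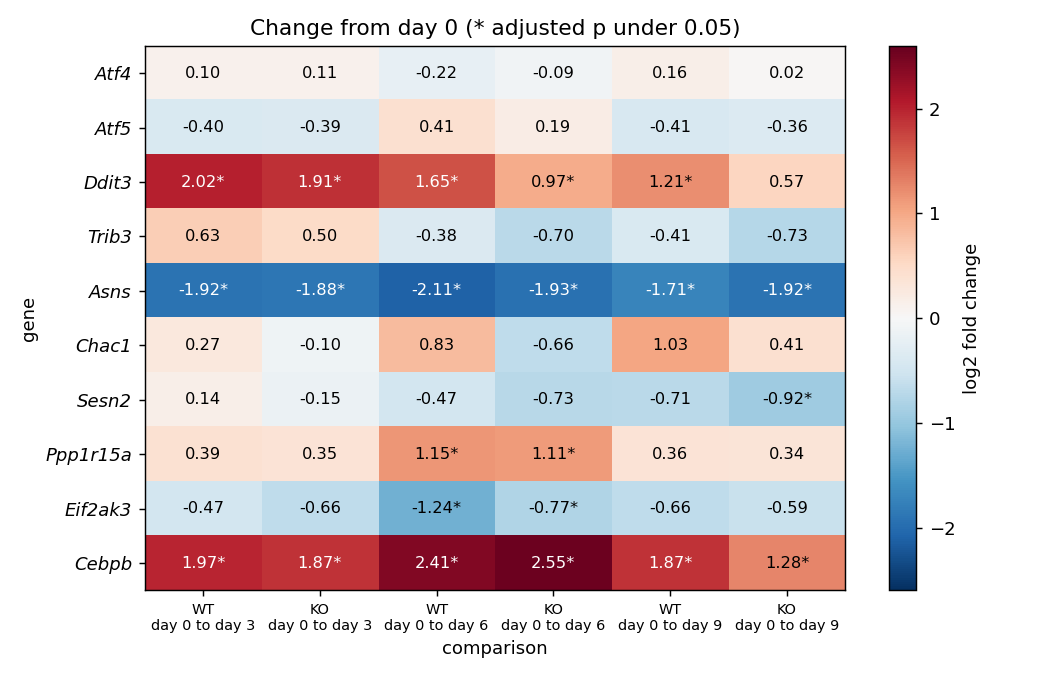
Change of each of the 10 members from day 0 to days 3, 6 and 9 in WT and Atf3 KO, as colour on a log2(FPKM + 1) scale, with an asterisk where limma's adjusted p was under 0.05. Cebpb and Asns are marked in all 6 columns and Ddit3 in 5, and Atf4, Atf5, Trib3 and Chac1 in none.

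Asns (ENSMUSG00000029752, mm10 chromosome 6, 7675169 to 7693254, minus strand) encodes asparagine synthetase, and it was the most abundant member in stem cells. At day 0 it was at 246, 283 and 285 FPKM in WT and at 251, 255 and 327 in Atf3 KO. At day 3 it was at 72.0, 78.7 and 63.1 in WT and at 86.4, 69.5 and 68.2 in Atf3 KO. At day 6 it was at 87.9, 57.3 and 47.1 in WT and at 82.3, 56.9 and 78.4 in Atf3 KO, and at day 9 at 84.7, 83.5 and 78.7 in WT and at 105.7, 71.7 and 49.7 in Atf3 KO. All 18 libraries of days 3 to 9 lay below all 6 of day 0, and neighbours in the order of the later means overlapped. Asns fell by 1.92 by day 3 (SE 0.241, adjusted p = 3.93e-06), by 2.11 by day 6 (adjusted p = 5.10e-07) and by 1.71 by day 9 (adjusted p = 6.56e-06) in WT. In Atf3 KO it fell by 1.88, 1.93 and 1.92 (adjusted p = 4.90e-06, 1.57e-06 and 1.42e-06). As TPM the day 9 calls were lost (WT -0.71, adjusted p = 0.248, and Atf3 KO -1.02, adjusted p = 0.101), with the median of all genes at 0.78 and 0.70. So Asns, whose promoter holds the element TGATGAAA printed above, went down at the time that Ddit3 and Cebpb went up and Atf4 messenger RNA passed no test.

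Chac1 (ENSMUSG00000027313, mm10 chromosome 2, 119351229 to 119354381, plus strand) encodes an enzyme that degrades glutathione, and Trib3 (ENSMUSG00000032715, mm10 chromosome 2, 152337422 to 152344032, minus strand) a pseudokinase that dampens Atf4 and Ddit3. Both are direct targets of this response and both scattered widely within groups. Chac1 in WT was at 8.32, 2.30 and 3.41 FPKM at day 0, at 4.04, 9.499 and 3.49 at day 3, at 9.77, 4.16 and 12.6 at day 6 and at 4.74, 12.7 and 13.7 at day 9. Knockout libraries were at 4.61, 2.87 and 10.8 FPKM at day 0, at 3.17, 9.06 and 3.93 at day 3, at 5.24, 2.45 and 2.03 at day 6 and at 8.02, 10.9 and 4.63 at day 9. The groups overlapped throughout the order of means, and within WT day 0 alone the libraries ran from 2.30 to 8.32. Chac1 passed no test between days. Its largest difference from day 0 was 1.03 in WT at day 9 (SE 0.518, adjusted p = 0.112), which passed without WT day 0 replicate 1 (adjusted p = 0.0416), without WT day 9 replicate 1 (0.0366), as TPM (1.98, 0.00117) and with equal sums outside the ribosomal-type genes (1.13, 0.0468).

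The mean of Trib3 was highest at day 3 in both genotypes. The WT libraries had it at 21.3, 9.33 and 9.15 FPKM at day 0, at 17.4, 24.1 and 17.9 at day 3, at 11.8, 5.40 and 11.9 at day 6 and at 5.83, 10.5 and 11.8 at day 9. In Atf3 KO it was at 13.5, 8.65 and 17.2 FPKM at day 0, at 14.03, 23.3 and 18.6 at day 3, at 9.99, 6.40 and 6.33 at day 6 and at 8.19, 8.97 and 5.04 at day 9. In each genotype all 3 libraries of day 3 were above all 3 of day 6. Trib3 fell from day 3 to day 6 by 1.02 in WT (SE 0.346, adjusted p = 0.0254) and by 1.196 in Atf3 KO (adjusted p = 0.0114), calls that passed in 12 of 16 and 13 of 16 alternatives. The WT call was lost without WT day 3 replicate 2 (adjusted p = 0.0872) and without WT day 6 replicate 2 (0.126). In Atf3 KO, 1 member was called higher and 2 lower between these days, where 32.7% of all genes were called: Cebpb rose by 0.68 (adjusted p = 0.0308, passing in 6 of 16 alternatives) and Ddit3 and Trib3 fell. The rise of Trib3 from day 0 to day 3 in WT, 0.63, did not pass (adjusted p = 0.197) unless WT day 0 replicate 1 was left out (1.01, adjusted p = 0.0473).

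Sesn2 (ENSMUSG00000028893, mm10 chromosome 4, 132492032 to 132510501, minus strand) encodes Sestrin 2, a leucine sensor that restrains the growth kinase complex mTORC1. It was at 51.6, 38.9 and 32.7 FPKM at day 0 in WT, at 29.6, 59.1 and 50.8 at day 3, at 27.5, 23.1 and 37.6 at day 6 and at 20.4, 27.7 and 25.3 at day 9. The 12 knockout values were at 43.6, 36.3 and 44.0 FPKM at day 0, at 21.0, 50.4 and 47.9 at day 3, at 21.9, 18.0 and 36.9 at day 6 and at 27.5, 21.3 and 16.6 at day 9. All libraries of day 9 were below all of day 0 in each genotype. From day 0 to day 9 Sesn2 fell by 0.92 in Atf3 KO (SE 0.323, adjusted p = 0.0256), a call that passed in 8 of 15 alternatives and stood at -0.04 as TPM, where the median of all genes was 0.70. In WT the same difference was -0.71 (adjusted p = 0.0798). The 2 were not distinguished by the test of their difference (-0.21, adjusted p = 1).

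Ppp1r15a (ENSMUSG00000040435, mm10 chromosome 7, 45522916 to 45526268, minus strand) encodes GADD34, the stress-induced subunit that directs a phosphatase to eIF2alpha. Its WT values were at 17.5, 12.8 and 15.6 FPKM at day 0, at 15.2, 31.2 and 17.5 at day 3, at 33.6, 29.3 and 43.3 at day 6 and at 11.6, 24.5 and 26.9 at day 9. Levels in Atf3 KO were at 14.7, 11.2 and 18.4 FPKM at day 0, at 13, 27.8 and 17.9 at day 3, at 28.2, 24.8 and 48.5 at day 6 and at 14.1, 24.3 and 18.7 at day 9. All 6 libraries of day 6 were above all 6 of day 0. Ppp1r15a rose from day 0 to day 6 by 1.15 in WT (SE 0.339, adjusted p = 0.00860) and by 1.11 in Atf3 KO (adjusted p = 0.0114). The WT call was lost only as TPM (adjusted p = 0.0790). The Atf3 KO call was lost with the replicate numbers as a block (0.0619) and without the unnumbered library of day 0 (0.0583) or the day 6 library of replicate 3 (0.0618).

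Counts of members called in Atf3 KO were the same size as in WT against day 0. By day 3, 2 members were higher and 1 lower (11.9% and 16.2% of all genes), by day 6, 3 higher and 2 lower (21.4% and 22.3%), and by day 9, 1 higher and 2 lower (22.4% and 22.7%). By day 6 the 5 called members were Cebpb, Ddit3 and Ppp1r15a above day 0 and Asns and Eif2ak3 below it, in WT and in Atf3 KO alike. Leaving out 1 library gave 3 to 5 called members in Atf3 KO and 5 to 6 in WT. The Eif2ak3 call in Atf3 KO was at the edge of the threshold (limma, adjusted p = 0.0496).

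The second question is whether the knockout of Atf3, which is known to bind some of the same promoters, went with other levels of these genes. No member passed the test between Atf3 KO and WT at any day. At day 0 and at day 3, 0 of 10 members were called by limma, 0 had an unadjusted p under 0.05 (1.11% and 0.798% of all genes), and 0.0132% of all genes were called at each day. At day 6, 0 members were called, 2 had an unadjusted p under 0.05, as did 10% of all genes, and 0.726% of all genes were called. At day 9, 0 members were called, 1 had an unadjusted p under 0.05, as did 5.2% of all genes, and 0.963% of all genes were called. Averaged over the 4 days, 0 members were called and 0 had an unadjusted p under 0.05, where 0.198% and 3.81% of all genes did. Voom on recovered reads called 0 members in each of these comparisons too. In all 40 combinations of member and day the 3 knockout libraries overlapped the 3 WT libraries, and the ratio of the means was between 1/1.4 and 1.4 in 37 of them. Neither was counted over all genes, so both describe the members alone. Same-numbered libraries of day 3 were not paired here, although their deviations from the group means correlated over the 10 members (r = 0.926, 0.958 and 0.958). The day 3 ranges, intervals and p-values ignore this pairing. With the replicate numbers as a block within each day, 0 members were called. The exact permutation test of 3 against 3 libraries cannot give a p below 0.1.

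The largest differences were at day 6. Chac1 was at 8.85 ± 4.30 FPKM in WT and 3.24 ± 1.75 in Atf3 KO (SD, n = 3), a ratio of 0.366. Its difference of -1.18 on the log2 scale had a 95% interval of -2.26 to -0.10 and an adjusted p of 0.453. Eif2ak3 was at 1.963 ± 0.600 FPKM in WT and 4.16 ± 2.65 in Atf3 KO, a ratio of 2.12. Its difference of 0.70 had an interval of 0.05 to 1.34 and an adjusted p of 0.461, and replicate 3 of the knockout, at 7.11 FPKM, was above the other 5 libraries of that day. In the same day's libraries the ribosomal-type share was 18.4%, 12.2% and 45.6% in WT and 18.6%, 11.6% and 6.10% in Atf3 KO, and its part in these differences was not tested. Summed marker levels of that day also lay apart, with red blood cell markers at 23.3 to 85.7 FPKM in WT and 163 to 2495 in Atf3 KO, and smooth muscle and fibroblast markers at 93.4 to 191 and 280.3 to 426. The part of these markers was not tested either. At day 9 Cebpb was at 10.6 ± 3.93 FPKM in WT and 6.30 ± 1.70 in Atf3 KO, a difference of -0.64 with an interval of -1.12 to -0.15 and an adjusted p of 0.497. Here summed markers also differed, with heart muscle markers at 80.1 to 130.1 FPKM in WT and 283 to 937 in Atf3 KO. Trophoblast markers went the other way, at 44.0 to 87.4 FPKM in WT and 7.62 to 15.5 in Atf3 KO. The part of these markers was not tested.

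For the other members the intervals give what differences these libraries leave possible. Atf4 differed by -0.11, -0.09, 0.02 and -0.24 at days 0, 3, 6 and 9, and the interval at day 9 ran from -0.72 to 0.24. Averaged over the 4 days, Atf4 differed by -0.11, with an interval of -0.35 to 0.13. Asns averaged 0.03, with an interval of -0.22 to 0.28. Ddit3 was higher by 0.32 at day 0 and lower by 0.32 at day 9, neither past the threshold (adjusted p = 1 for both). The largest mean difference was that of Eif2ak3, 0.32 with an interval of -0.01 to 0.64 (adjusted p = 0.996). An exact permutation test within days over 160000 arrangements gave an unadjusted p of 0.05995 for Eif2ak3, 0.1662 for Cebpb and 0.2884 for Chac1. For Atf3 the same exact test gave 1.25e-05, the smallest value it can give. At days 0, 3, 6 and 9, in that order, 6, 3, 4 and 1 of 10 members were higher in Atf3 KO. The median of the members at day 9 was -0.21, against 0.01 for all genes. The share of all genes that were higher was not counted. The members were measured in the same libraries, so their signs are not separate results.

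**Figure D3:**
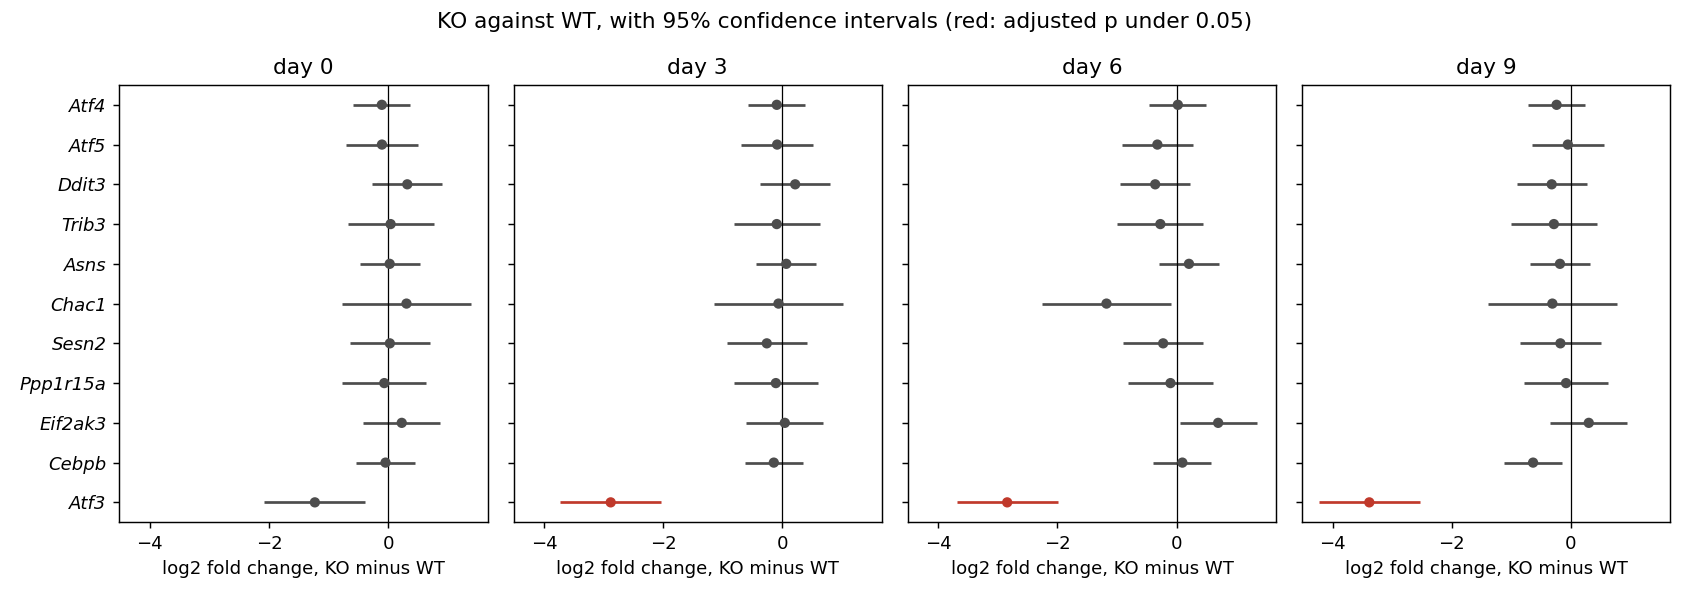
Difference between Atf3 KO and WT on the log2(FPKM + 1) scale at days 0, 3, 6 and 9 for the 10 members and Atf3, as points with 95% intervals from limma, red where the adjusted p was under 0.05. Only Atf3 at days 3, 6 and 9 is red, and of the members' intervals all but 3 include 0: Chac1 and Eif2ak3 at day 6 and Cebpb at day 9.

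The change from day 0 was also compared between genotypes directly. At days 3, 6 and 9 the interaction called 0 of 10 members by limma and 0 by voom. Limma called 0.0132%, 0.112% and 0.264% of all genes. By limma 0 members had an unadjusted p under 0.05, where 0.745%, 4.27% and 3.06% of all genes did. The largest was that of Chac1 at day 6, -1.49 (adjusted p = 0.956). Cebpb at day 9 had -0.59 (adjusted p = 1). Over 1564 combinations of member, genotype comparison and alternative setting, 0 were called, and the lowest adjusted p was 0.0955.

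Beyond the 10 members, 101 other tested genes of the pathway were followed in 7 lists. Between Atf3 KO and WT, 0 were called at days 0, 3 and 6 by limma and by voom on recovered reads. Of all genes, limma called 0.0132%, 0.0132% and 0.726% at those days and 0.963% at day 9. Beside such shares, these counts are not a result about the pathway genes as a set. The one call at day 9 was Cebpa, a C/EBP factor gene, at 1.39 ± 0.0821 FPKM in WT and 0.544 ± 0.146 in Atf3 KO (-0.64, SE 0.147, adjusted p = 0.0354), and 11 of 14 alternatives lost it, leaving out any 1 of the 6 libraries of day 9 included. Among the genes that stood for their lists, Impact, an inhibitor of the amino acid sensing kinase GCN2, differed by 0.75 at day 6 (adjusted p = 0.551). Phgdh, the first enzyme of serine synthesis, differed by -0.46 at day 6 (adjusted p = 0.590).

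The genes of amino acid synthesis were among those lower at day 6, as Asns was. Of 11 tested enzymes of amino acid synthesis and one-carbon metabolism, 7 were lower and 0 higher at day 6 than at day 0 in WT, with a median of -1.08, and 7 and 0 in Atf3 KO, with a median of -1.03 (all genes -0.01 and 0.03). From day 0 to day 6, of all genes 25.2% were lower and 22.5% higher in WT, and 22.3% and 21.4% in Atf3 KO, and these shares are the background of each list below. Cbs, which makes cystathionine, fell from 13.2 ± 2.25 to 1.19 ± 0.698 FPKM in WT (-2.73, adjusted p = 5.22e-10) and from 13.4 ± 0.738 to 0.576 ± 0.111 in Atf3 KO (-3.19). Cth, the next enzyme on the way to cysteine, fell by 2.56 in WT and by 2.55 in Atf3 KO, and Got1, an aspartate aminotransferase, by 1.97 and by 1.74. As TPM, 3 were called in Atf3 KO, all lower, and the medians were -1.17 in WT and -0.61 in Atf3 KO.

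Among amino acid transporters the counts were near those shares. In WT at day 6, 4 of 12 were lower than at day 0 and 2 higher (all genes 25.2% and 22.5%), and in Atf3 KO 4 and 3 (22.3% and 21.4%). Slc7a3, a carrier of arginine and lysine, went from 37.5 ± 3.62 to 4.02 ± 0.798 FPKM in WT (-2.95, adjusted p = 3.11e-10) and fell by 3.28 in Atf3 KO. Slc1a5, a glutamine carrier, fell by 2.11 and by 2.13, and Slc7a1, an arginine carrier, changed by -2.01 and -1.957.

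Transfer RNA synthetase genes were lower in 6 of 12 cases at day 6 in WT and in 5 of 12 in Atf3 KO, and higher in 0, where 25.2% and 22.3% of all genes were lower. The list's medians were -0.44 and -0.66. Iars, for isoleucine, fell by 1.19 in WT (adjusted p = 6.95e-04) and by 1.04 in Atf3 KO, and Nars, for asparagine, by 1.18 and by 1.00. As TPM these counts became 1 and 0, while the medians stayed negative. Genes of the other arms of the unfolded protein response were lower in 7 of 20 cases in WT and in 5 of 20 in Atf3 KO, and higher in 0, where the share of all genes lower was 25.2% and 22.3%. Sdf2l1, a cofactor of endoplasmic reticulum chaperones, fell by 1.37 and by 1.45, Pdia4, a disulfide isomerase, by 1.35 and by 1.23, and Atf6b by 1.07 and by 1.18. The median of this list in Atf3 KO was -0.30 relative to that of all genes, and -0.23 as TPM.

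In the list of stress, secreted and autophagy targets, which includes Atf3, the balance at day 6 was the other way, with 6 of 17 higher and 2 lower in WT and 5 higher and 1 lower in Atf3 KO (medians 0.64 and 0.67), where 22.5% and 21.4% of all genes were higher. Bbc3, which encodes the death protein PUMA, rose from 6.25 ± 1.68 to 19.9 ± 6.29 FPKM in WT (1.51, adjusted p = 3.85e-04) and by 1.09 in Atf3 KO. Gdf15, a secreted stress signal, fell by 1.84 and by 1.69, to means of 0.0743 and 0.0714 FPKM. Of the 17 genes of the eIF2alpha kinases and eIF2 machinery, 1 was higher and 5 lower in WT, and 3 and 3 in Atf3 KO, near the 25.2% and 22.3% of all genes lower. Eif2s3x, a subunit of eIF2, fell by 1.80 and by 1.52, and Ppp1r15b, the constitutive counterpart of Ppp1r15a, by 1.44 and by 1.25. Ppp1r15b thus fell between the days at which Ppp1r15a rose. The median of this list in Atf3 KO was -0.17 relative to that of all genes, and -0.08 as TPM. Of 13 C/EBP factors and paralogs of the members, 1 was higher and 2 lower in WT and 2 and 2 in Atf3 KO, none of these shares above those of all genes, and Atf1 fell by 1.48 and by 1.51.

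At day 3, 10 of the 101 genes were higher and 18 lower than at day 0 in WT, and 12 higher and 23 lower in Atf3 KO, while 11.4% and 14.5% of all genes in WT and 11.9% and 16.2% in Atf3 KO were called higher and lower. Ddit4, a brake on mTORC1, rose by 3.40 in WT (SE 0.602, adjusted p = 2.12e-04), to 239 ± 237 FPKM, and by 2.605 in Atf3 KO (adjusted p = 0.00257). The SD shows how unequal the day 3 libraries were. Impact rose from 27.2 ± 5.72 to 126 ± 51.5 FPKM in WT (2.10, adjusted p = 6.11e-04) and by 2.44 in Atf3 KO. Xbp1, the factor of the IRE1 arm, fell by 1.39 and by 1.53.

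Members also varied from library to library inside a group. With group means subtracted, the 45 pairs of members had a median Pearson r of 0.20 over the 24 libraries, 33 pairs were positive and the range was -0.75 to 0.94. These correlations are descriptions, since the libraries share their depth and their ribosomal-type share. Trib3 and Chac1 were the closest pair (r = 0.94), followed by Atf5 and Chac1 (0.82) and Atf5 and Trib3 (0.81). Over the 8 group means Trib3 and Chac1 gave r = -0.22, so the close relation was one between libraries of a group, not between the groups. In Trib3, the library of WT day 0 at 21.3 FPKM beside 9.33 and 9.15 was also the one with Chac1 at 8.32 beside 2.30 and 3.41. Atf4 went most with Ppp1r15a (0.78) and Sesn2 (0.75). Eif2ak3 ran against Chac1 (-0.75) and Trib3 (-0.70).

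**Figure D4:**
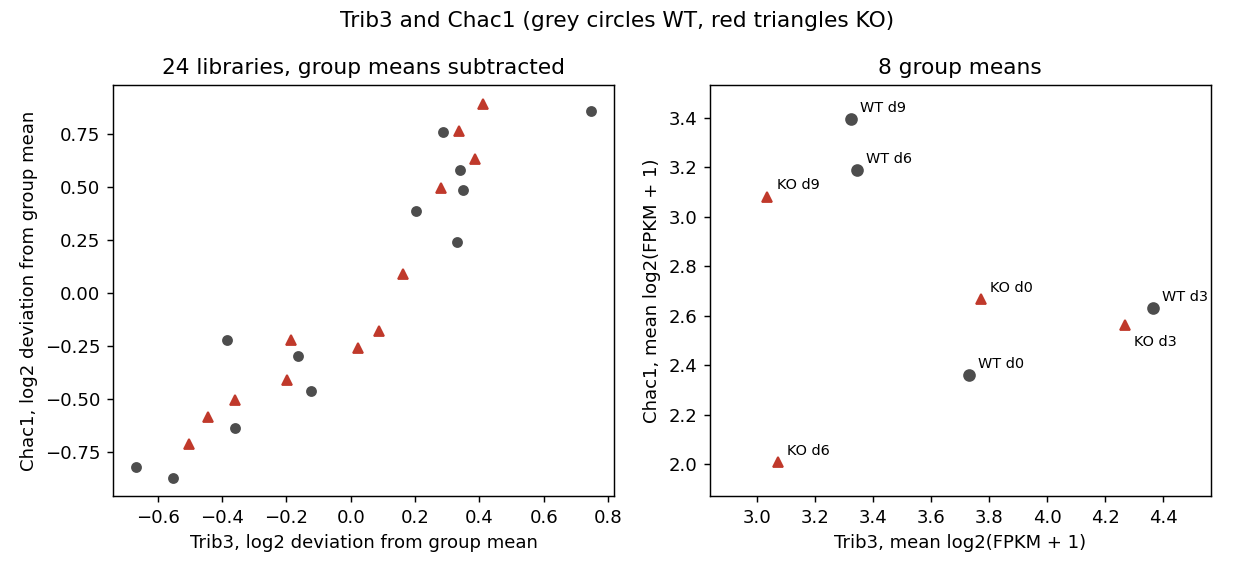
Chac1 against Trib3 on the log2(FPKM + 1) scale, left as deviations from the group mean in 24 libraries and right as the 8 group means, WT in grey and Atf3 KO in red. The libraries lie along a rising line (r = 0.94), and the group means do not (r = -0.22).

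Among 6227 genes with a mean of at least 5 FPKM, those with a course over libraries most like Trib3 were Chac1 (r = 0.94), Fiz1 (0.92) and B4galnt4 (0.92). For Atf4 they were Dyrk3 (0.91), Herpud1 (0.87) and Yrdc (0.87), and for Ddit3 Cox6b2 (0.89), Uap1l1 (0.88) and Cdk11b (0.85).

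The ribosomal-type share of a library moved with several members. Its log2 value, with group means subtracted, gave r = 0.79 with Atf5, 0.76 with Ddit3, 0.67 with Trib3 and 0.65 with Chac1, and -0.77 with Eif2ak3 (24 libraries). These stood at percentiles 91.9, 89.8, 82.5, 81.2 and 8.39 among all tested genes, so many other genes followed this share as closely. Atf4 gave 0.09 and Asns -0.15. Its part in the results on these members was not tested. In the 12 WT libraries, Atf3 itself gave r = 0.61 with Atf4 and between -0.21 and 0.29 with the other 9 members.

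**Figure D5:**
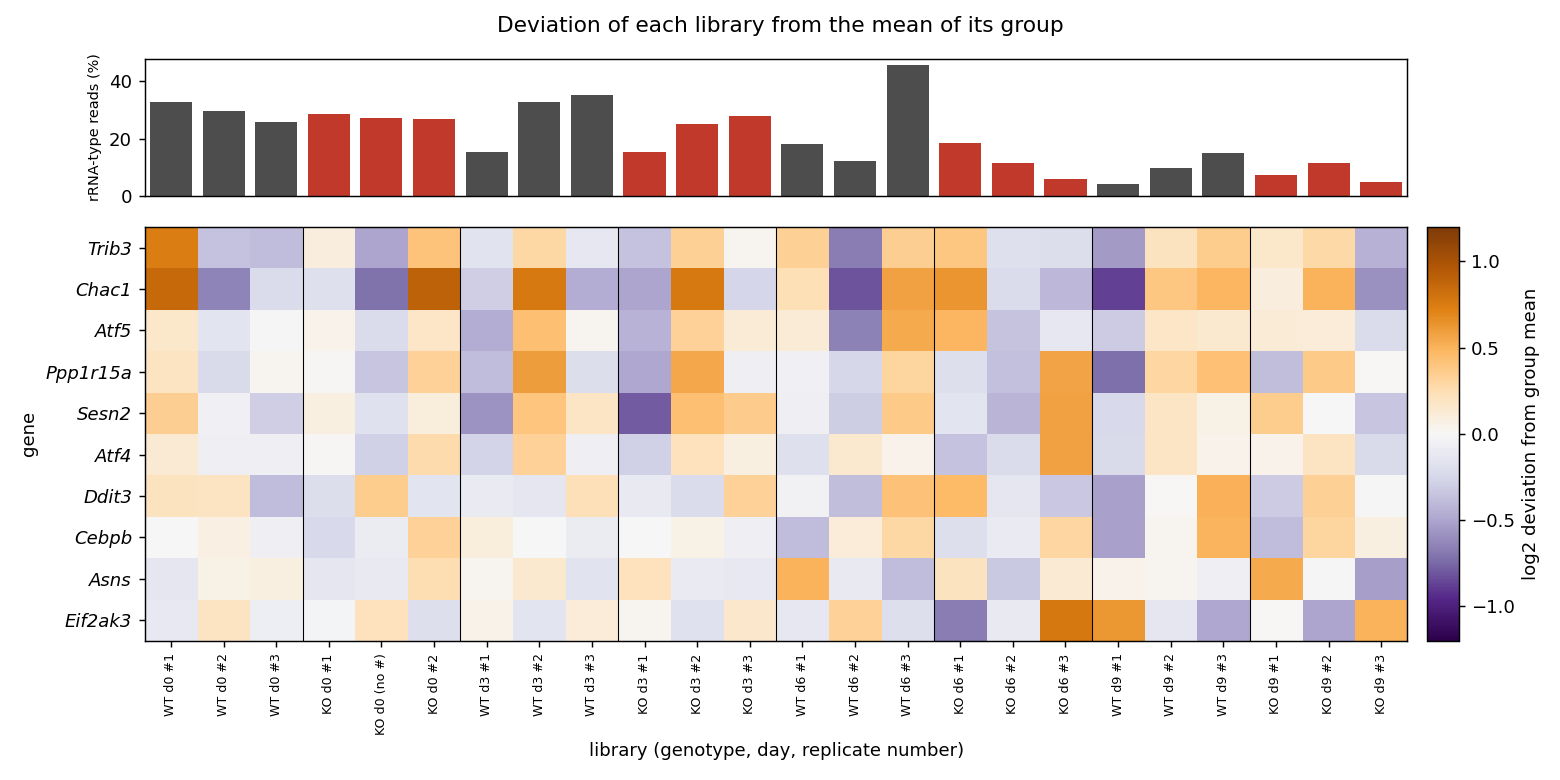
Share of ribosomal-type reads in each of the 24 libraries as bars in percent, above the deviation of each of the 10 members from its group mean on the log2(FPKM + 1) scale as colour. WT day 6 replicate 3, with 45.6% of reads in these genes, has Atf5, Ddit3, Trib3 and Chac1 above their group means.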

How the data were processed

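RNA of 24 libraries was measured by paired-end sequencing of poly(A)-selected RNA. The authors deposited 1 table of FPKM values for 53465 genes. Per the submitters' processing notes, reads were aligned to mm10; the tools listed are HISAT2 2.2.1 and featureCounts 2.0.1, with FastQC 0.11.9 and Trimmomatic 0.39, and R 4.1.0 with DESeq2 1.30.1. The sources used here do not give how FPKM was computed or whether counting used strand. A column was tied to a sample by its name, and 1 Atf3 KO day 0 column could be tied only to its group. The name of that column carries a replicate number that the sample titles give to another library. The divisor did not follow the read total. In Atf3 KO, 1 read per kilobase gave 0.0723 FPKM in the unnumbered day 0 library (16920617 reads). It gave 0.0496 in day 6 replicate 3 (17003204 reads). TPM scales each library to the same sum, so in TPM a few abundant genes can shift all others.

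Genes at 1 FPKM or more in at least 3 libraries (15159, all 10 members included) were tested with limma 3.58.1 in R 4.3.3 on log2(FPKM + 1), in 1 fit of 8 groups with a trended prior (residual degrees of freedom 16, prior 4.02). P-values are two-sided and were adjusted by Benjamini-Hochberg within each of 18 comparisons, with a threshold of 0.05. Intervals are 95%. Reads were recovered as FPKM times GENCODE exon length (53360 genes): 95.5% to 96.9% of values up to 50 reads came out within 0.05 of a whole number, and these were used for depth and for the alternative test with voom. Promoters came from RefSeq (GRCm38.p6). The code was tested on simulated data. Plots were drawn with matplotlib 3.10.9, and summaries made with pandas 2.3.3, scipy 1.17.1 and numpy 2.4.6 under Python 3.11.15.

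The members and lists were chosen with earlier results of these data known. The text names the 10 members and Atf3, up to 3 genes per pathway list and comparison with the largest change past the threshold (or the most abundant where none passed), and the 3 genes most like Atf4, Ddit3 and Trib3, leaving out predicted genes. At day 3, deviations of WT and Atf3 KO libraries with the same number correlated (r = 0.655, 0.614 and 0.599 over all genes). Over the 10 members r was 0.926, 0.958 and 0.958. The main fit, the ranges and the exact tests did not use these pairs. Pairing entered only in the alternative with a replicate block. At day 0, r was 0.120 and -0.106 by sample title, and 0.120, 0.262 and 0.0456 by column number. At day 6 it was 0.265, -0.259 and -0.467 and at day 9 0.196, 0.179 and -0.459, so elsewhere libraries share only a number. Alternatives were another pseudocount, filter, scaling, prior or test, the compared groups alone, a replicate block and leaving out each library. The block across days and leaving out both day 6 libraries numbered 3 were added after the data were seen.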

Additional observations from a re-analysis of the deposited data

How the results depend on the processing

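Of 3104 recomputed differences of members, 3005 kept their side of the threshold and, where called, their direction, 60 lost a call, 38 gained one and 1 reversed: Trib3 in WT from day 6 to day 9 went from -0.02 to 1.00 as TPM (adjusted p = 0.0370), where the median of all genes went from 0.02 to 0.83. In 237 of them the sign of a difference never called changed. With the replicate numbers as a block within each day, 0 members were called between Atf3 KO and WT and 0 in the interactions, as without it. The stricter filter (5 FPKM in 12 libraries) left out Chac1 and Eif2ak3.

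As TPM, the number of members called was 3 in WT from day 0 to 6, 5 from day 0 to 9, 1 from day 3 to 6 and 4 from day 6 to 9, and 1 in Atf3 KO from day 3 to 6. Of all 15159 genes, TPM called 1859 higher and 1695 lower, 5923 and 897, 1205 and 876, 4632 and 101, and 2363 and 772, in that order. Without that scaling, 1236 were higher and 777 lower in WT from day 6 to 9. In WT from day 3 to 6 it was 0 with no filter, 1 with the compared groups alone and 1 without both day 6 libraries numbered 3. With the compared groups alone it was 1 in Atf3 KO from day 3 to 6 and 0 from day 6 to 9. The block across days gave 3 in Atf3 KO from day 0 to 6. Leaving out 1 library gave 3 to 5 in WT from day 0 to 9 (5 without WT day 9 replicate 1), 1 to 2 from day 3 to 6 (1 without WT day 3 replicate 1 or 3 or WT day 6 replicate 1 or 3) and 0 to 1 from day 6 to 9 (1 without WT day 6 replicate 2 or WT day 9 replicate 3). It gave 3 to 5 in Atf3 KO from day 0 to 6 (3 without the unnumbered library of day 0 or day 6 replicate 1) and 0 to 3 from day 3 to 6 (0 without day 6 replicate 2, 1 without day 3 replicate 3). The median r between members was 0.290 without WT day 6 replicate 3.

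For the pathway lists from day 0 to 6 in WT, TPM gave 2 calls for the eIF2 machinery, 1 for transfer RNA synthetases, 4 for stress targets and 3 for the other arms of the unfolded protein response. In Atf3 KO it gave 0, 0 and 1 for the eIF2 machinery, synthetases and other arms, 3 for amino acid synthesis and 1 for C/EBP factors. Over all genes TPM called 1859 higher and 1695 lower in WT, and 3339 and 1196 in Atf3 KO. The stricter filter gave 4 for stress targets and 1 for C/EBP factors in WT, and 4 for transport, 3 for stress targets and 1 for C/EBP factors in Atf3 KO. The eIF2 machinery had 3 in WT with the compared groups alone, and in Atf3 KO 3 with no filter, the compared groups alone or the block. C/EBP factors in Atf3 KO had 2 with no filter, equal sums or the compared groups alone. Synthetases in Atf3 KO had 9 with equal sums, and the other arms 9 without both day 6 libraries numbered 3. Without 1 library the ranges were 4 to 9 (other arms, WT), 2 to 5 and 2 to 4 (C/EBP factors, WT and Atf3 KO), 3 to 6 (eIF2 machinery, Atf3 KO) and 5 to 9 (synthetases, Atf3 KO).

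Of the 101 other pathway genes, TPM called 10 in WT from day 0 to 3 and 21 from day 0 to 6, and 9, 16 and 29 in Atf3 KO by days 3, 6 and 9. Over all genes it called 708 higher and 793 lower, and 1859 and 1695, in WT. In Atf3 KO those counts were 815 and 865, 3339 and 1196, and 5437 and 956. The block gave 20 in Atf3 KO by day 3, and leaving out 1 library gave 18 to 33 by day 3 in WT and 21 to 37 in Atf3 KO. Between Atf3 KO and WT at day 9, the call of Cebpa became 0 with a pseudocount of 0.1, the stricter filter, TPM, equal sums, the compared groups alone, the block and each library left out (0 to 0), and at day 6 leaving out 1 library gave 0 to 2. From day 0 to 9, TPM turned Nars (0.21, adjusted p = 0.759) and Pdia4 (0.16, 0.782) in WT and Creld2 (0.015, 0.974) in Atf3 KO, each called lower otherwise. Relative to the median of all genes as TPM they stood at -0.56, -0.61 and -0.69, against -0.78, -0.83 and -0.84 without that scaling. Calls of all genes in WT from day 0 to 9 went from 3364 higher and 3611 lower to 5923 and 897 as TPM. Over all genes, 110 were called between Atf3 KO and WT at day 6 and 146 at day 9, against 0 and 1 with the compared groups alone. The cause of the other changes was not tested.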
